A study of Mus musculus with 13 samples.

Results

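The genes described here encode the lysosome's soluble hydrolases and their helper proteins, its membrane proteins, and the proton pump that acidifies it. The set holds 55 genes of the 55487 in the table, taken by gene symbol, with earlier results of these data known when they were chosen. They were read in RNA-seq of microglia, the resident macrophages of the brain, sorted from the whole brain of mouse pups labelled P4, that is, postnatal day 4, within a neonatal age range that the series gives. The group MIA came from maternal immune activation, in which a dam's immune system is stimulated during pregnancy, and was set against CON, the control offspring. Each group had 5 libraries, named MIA 1 to MIA 5 and CON 1 to CON 5, and the titles mark 3 further libraries, MIA 6, MIA 7 and CON 6, as excluded. The labels tie all 13 libraries to one preparation: unperfused brains without meninges, papain digestion and magnetic selection for CD11b, a surface protein that other myeloid cells carry too. The labels do not name the agent given to the dams, the strain, the sex, the litter or the reason for the exclusions. Nothing says that the libraries of a group came from separate litters, so the p-values measure the spread between these libraries.

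Lysosomes are acidic compartments in which cells break down protein, glycans and lipids taken up from outside or delivered by autophagy. A proton pump driven by ATP, the V-ATPase, keeps the lumen acid, and most of the hydrolases work only at that acidity. The products leave through transporters and lipid carriers of the limiting membrane, which is itself coated by heavily glycosylated proteins. In the neonatal brain microglia engulf dying cells, synaptic material and debris, and they hold much of the tissue's cathepsin transcript. The transcription factor TFEB binds a short palindromic motif found near the start of many lysosomal genes.

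The labelled cell type was checked first. Transcripts are given as CPM, a gene's counts relative to the library's total and scaled between libraries. Summed over 15 microglial markers, the level was 16755 to 21591 CPM in MIA and 25498 to 32733 CPM in CON, and 14 of the 15 fell in MIA, with a median log2 fold change of -0.54. All 11 endothelial markers rose, and their sum was 2690 to 4557 CPM in MIA against 933 to 1491 CPM in CON. Of 8 tested neuronal markers 4 rose, at summed levels of 102 to 151 CPM in MIA against 54.1 to 72.4 CPM in CON. Of 6 mural cell and fibroblast markers 3 rose. Of 5 oligodendrocyte lineage markers Pdgfra rose and 4 did not pass the test, with 3 estimates positive and 2 negative. The sum of these 5 was 131 to 197 CPM in MIA and 145 to 189 CPM in CON. None of the 5 tested markers of neutrophils and monocytes, of border-associated macrophages, of astrocytes or of red cells passed the test, and lymphocyte markers summed to at most 1.04 CPM. The neutrophil genes Ly6g and Elane were too low to be tested. In bulk samples, fewer cells of a type and less RNA per cell cannot be told apart. CON 1 and CON 2 stood apart from the other control libraries: 8 genes induced by tissue dissociation summed to 1985 CPM in CON 1 and 1798 CPM in CON 2, against 6338 to 7280 CPM in CON 3 to CON 5, while MIA 1 to MIA 5 held 4145 to 4816 CPM. Red cell genes were likewise low in CON 1 and CON 2, at 61.3 and 80.1 CPM, against 1159 to 2190 CPM in CON 3 to CON 5. Depth ran from 25387055 to 35593541 counts over all 13 libraries, and was 25719147 to 29823415 counts in MIA 1 to MIA 5 against 27900106 to 35593541 counts in CON 1 to CON 5.

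Most lysosomal genes had less transcript in MIA. Of the 55 members 33 fell, or 60%, none rose and 22 did not pass the test, which was edgeR's quasi-likelihood test at an adjusted p of 0.05 over 15511 genes. Over all genes tested 4.58% were lower in MIA, 5.75% were higher, and 10.3% changed in either direction. The median log2 fold change of MIA over CON was -0.39 across members and -0.0085 across all genes, and 54 of the 55 estimates were negative. At an unadjusted p under 0.05, 44 members were lower and none was higher, but the share of all genes past that threshold was not taken. For 29 members all 5 MIA libraries lay below the lowest CON library, which was so for 4.36% of all genes. Over all genes, 5.59% had every MIA library above the highest control, and 9.95% had no overlap in either direction. The called members nearest the threshold were Asah1 and Atp6v1c1, with adjusted p = 0.0231 and 0.0346, and on the other side stood Lipa and Manba, with adjusted p = 0.0523 and 0.0602. All 55 members passed the filter on low counts. Microglial markers moved in the same direction as the members, at a median of -0.54, and endothelial markers in the opposite direction, at 1.40. The part of these markers in the members' results was not tested. The fold was modest for each gene, between -0.64 and 0.05 on the log2 scale.

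**Figure D1:**
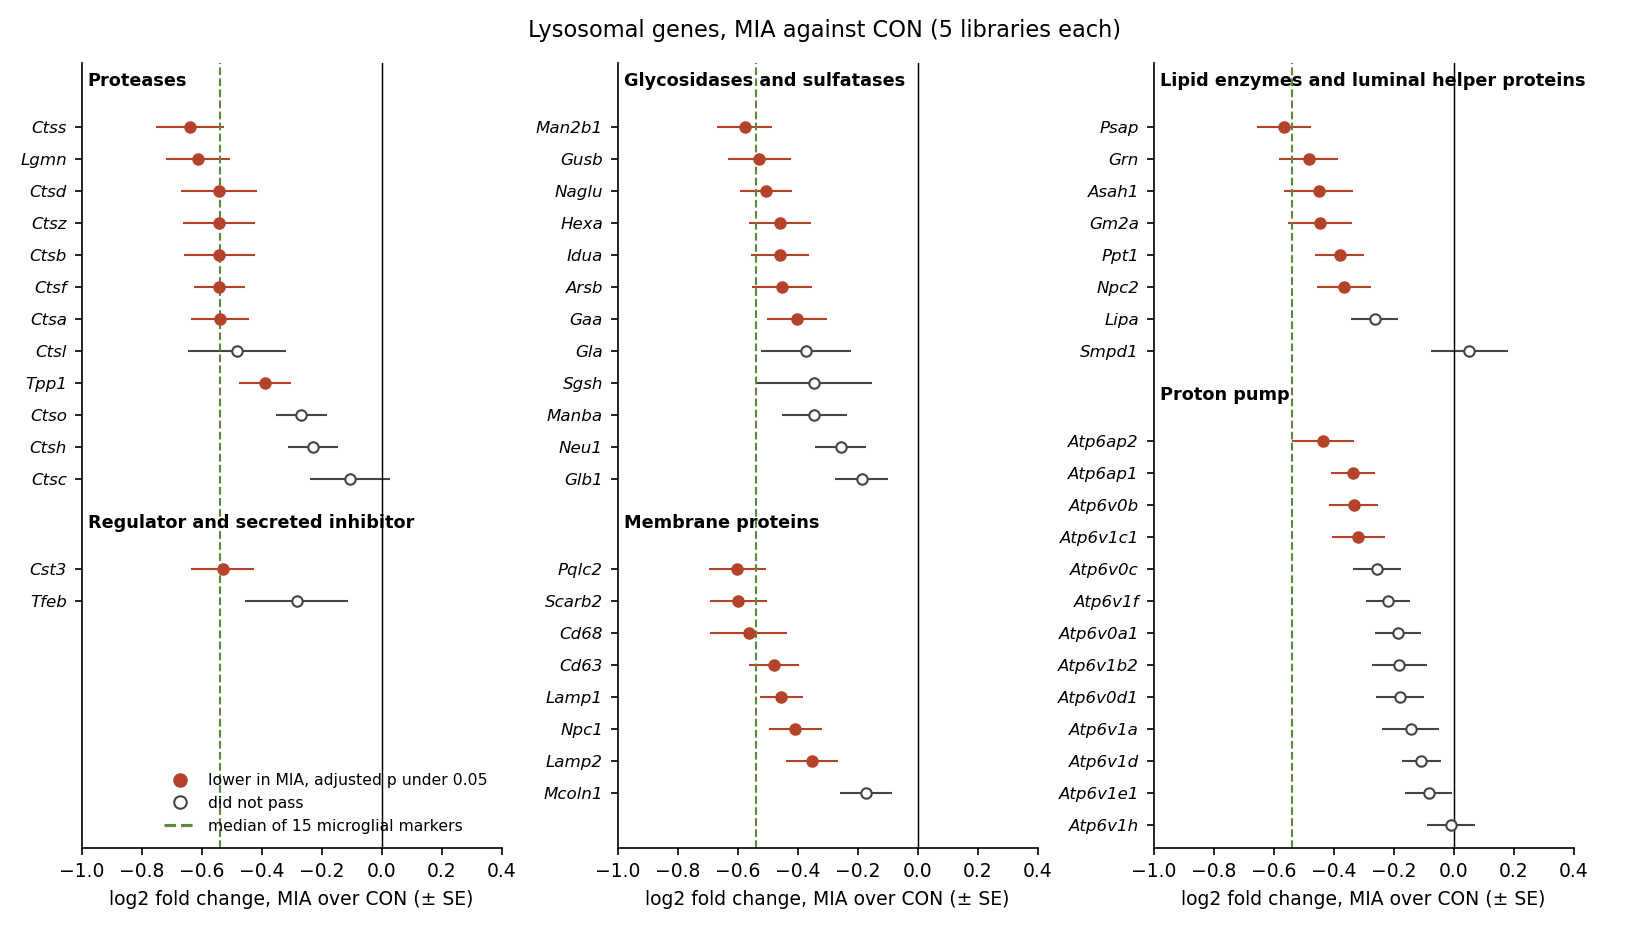
Log2 fold change of MIA over CON for the 55 members, grouped by role, with bars for 1 SE filled points for genes that passed the test and a dashed line at the median of 15 microglial markers, -0.54. The 33 called genes all lie left of 0, and the medians are -0.19 for the proton pump and -0.54 for the proteases.

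The count depended on which libraries entered. With the 3 excluded libraries put back, 7 members fell, among 1.5% of all genes: Ctsf, Idua, Man2b1, Naglu, Cd63, Pqlc2 and Scarb2. With those 3 back and CON 1 and CON 2 left out, only Pqlc2 was called, among 0.231% of all genes. Leaving out CON 1 and CON 2 alone gave 39 members, with 5.38% of all genes lower. Without MIA 5 the count was 22, with 2.32% of all genes lower, and without MIA 4 it was 26, with 2.43%. Without CON 1 it was 42, with 6.51%. The members' counts thus moved in the same direction as the calls over the whole table. In every one of these fits no member rose.

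Per kb of exonic length, the highest levels were those of a few proteases and a protease inhibitor. This length counts every annotated exon base of a gene once, so it can exceed that of a single transcript. It was taken from the GENCODE M21 annotation, since the labels do not name the authors' own annotation. The order depends on it. In CON, Ctsb averaged 7976 CPM over 6051 exonic bases and Ctss 2783 CPM over 1358, yet per kb Ctss stood higher. Ctsd, the main aspartic protease of lysosomes, stood highest at 2740.5 CPM per kb in MIA and 3989 CPM per kb in CON. Cst3, a secreted inhibitor of cysteine cathepsins, followed with 2051 CPM per kb in MIA and 2960.4 CPM per kb in CON. Next came the proteases Ctss with 1317 CPM per kb in MIA and 2049.6 CPM per kb in CON and Lgmn with 1199 CPM per kb in MIA and 1833 CPM per kb in CON. Lamp1, the most abundant membrane protein of the set, reached 578 CPM per kb in MIA and 792 CPM per kb in CON. At the other end Tfeb had 1.34 CPM per kb in MIA and 1.63 CPM per kb in CON. Together the members took 3.668 to 4.381% of all counts in MIA and 4.906 to 6.311% in CON.

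The motif that TFEB and its relatives bind holds the palindrome CACGTG, the E-box, and its flanks make the longer form GTCACGTG. Both were searched on both strands of RefSeq promoter windows of 300 bases, 250 before and 50 after the annotated start, and every GTCACGTG also contains CACGTG. Of the members 48 matched a window, with 55 windows in all. The longer form was in 11 of the 55 windows, or 20.0%, and in 738 of 32851 windows of all genes, or 2.25%. The E-box was in 15 of the 55 windows, or 27.3%, and in 7.15% of all windows. Sites are printed here so that the letters can be set beside the response: the first 6 genes fell in MIA, and the last 2 did not pass the test. Each line gives 30 bases of the gene's strand, 5′ to 3′, with the longer motif in capitals, read as CACGTGAC where it lies on the opposite strand.
Ctsa: atgagcaaactGTCACGTGatgcagatgct
Ctsd: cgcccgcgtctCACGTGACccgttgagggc
Lgmn: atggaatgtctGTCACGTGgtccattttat
Naglu: ccaaccttcagGTCACGTGgcccgaggtcg
Lamp1: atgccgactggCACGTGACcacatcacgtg
Atp6v0b: tgtgcgcggggGTCACGTGgggtcggcgca
Mcoln1: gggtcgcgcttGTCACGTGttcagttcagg
Atp6v0d1: gccctactgcgGTCACGTGagacgcggtgc

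In the RefSeq table's build, GRCm38.p6, these stretches are Ctsa at chr2:164833748-164833777 on the plus strand, Ctsd at chr7:142387907-142387936 on the minus strand, Lgmn at chr12:102439125-102439154 on the minus strand, Naglu at chr11:101070008-101070037 on the plus strand, Lamp1 at chr8:13159122-13159151 on the plus strand, Atp6v0b at chr4:117887349-117887378 on the minus strand, Mcoln1 at chr8:3500435-3500464 on the plus strand and Atp6v0d1 at chr8:105566051-105566080 on the minus strand. All 8 printed motifs lie upstream of, or across, the annotated start. That of Ctsa spans bases -14 to -7, that of Lgmn -51 to -44 and that of Atp6v0d1 -5 to 3, counted from the start. A single site is printed per gene. Ctsa held another downstream, at bases 6 to 13, and Ctsd and Mcoln1 held others upstream. Gla, Glb1 and Sgsh, which did not pass the test, also held the longer form and are not printed. By role, the longer form was found in 3 of 10 proteases, 4 of 12 glycosidases and sulfatases, 0 of 7 lipid enzymes and helpers, 2 of 7 membrane proteins and 2 of 10 pump subunits. Of the 11 members that held it 6 fell in MIA, with a median log2 fold change of -0.37. Of the 37 matched members without it 23 fell, with a median of -0.40. A match is a run of letters and was not tested as a binding site.

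Proteases had the lowest median of the roles. Of 12 members 8 were lower in MIA, 7 of them without overlap between the groups, and the median log2 fold change was -0.54. Ctss, a cysteine cathepsin that trims the invariant chain during antigen presentation, had 2016, 1992, 1821, 1561 and 1554 CPM in MIA 1 to MIA 5, against 3015, 3386, 2467, 2445 and 2603 CPM in CON 1 to CON 5. Every MIA library lay below every CON library. The log2 fold change was -0.64 ± 0.11 (SE, edgeR adjusted p = 0.00295). Lgmn, the asparaginyl endopeptidase that processes other cathepsins, had 3038, 2989, 3022, 2481 and 2393 CPM in MIA 1 to MIA 5, against 4047, 5266, 3922, 3859 and 4199 CPM in CON 1 to CON 5. These groups did not overlap either, although CON 2 stood well above the other controls. Its change was -0.61 ± 0.11 (SE, edgeR adjusted p = 0.00255). Ctsf, another cysteine cathepsin, had 231, 233, 206, 195 and 195 CPM in MIA 1 to MIA 5, against 354, 310.1, 294, 275 and 308 CPM in CON 1 to CON 5. The MIA values were tightly grouped and all lower, with a change of -0.54 ± 0.08 (SE, edgeR adjusted p = 0.00144).

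Ctsd, which had the highest level per kb, had 7383, 7147, 6683, 5598 and 5404 CPM in MIA 1 to MIA 5, against 7508, 11580.5, 8663, 8841 and 10294 CPM in CON 1 to CON 5. Here the lowest control, CON 1, exceeded the highest MIA library by little, and MIA 4 and MIA 5 were the lowest. The change was -0.54 ± 0.13 (SE, edgeR adjusted p = 0.0146), and without MIA 5 the adjusted p was 0.0542. Ctsa, a carboxypeptidase that protects the galactosidase and sialidase it binds, changed by -0.54 ± 0.10, adjusted p = 0.00334. Ctsb changed by -0.54 ± 0.12, adjusted p = 0.0105, with CON 1 inside the MIA range, and Ctsz by -0.54 ± 0.12, adjusted p = 0.0111. The tripeptidyl peptidase Tpp1 changed by -0.39 ± 0.09, adjusted p = 0.0127, and lost the call without MIA 5. The other 4 proteases did not pass the test. Ctsl had 2236, 2128, 2052, 1685 and 1667 CPM in MIA 1 to MIA 5, against 1655, 2995, 2666, 3017 and 3317 CPM in CON 1 to CON 5. The 4 other controls lay above all MIA libraries and CON 1 below all of them, and the estimate was -0.48 ± 0.16 (SE, edgeR adjusted p = 0.0862). Without CON 1 the Ctsl estimate was -0.62 with adjusted p = 0.00131. Ctsc, which activates the serine proteases of immune cell granules, averaged 735 ± 135 CPM in MIA and 790.3 ± 116 CPM in CON (SD, n = 5 each), with an estimate of -0.10. Ctsh and Ctso had estimates of -0.23 and -0.27.

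**Figure D2:**
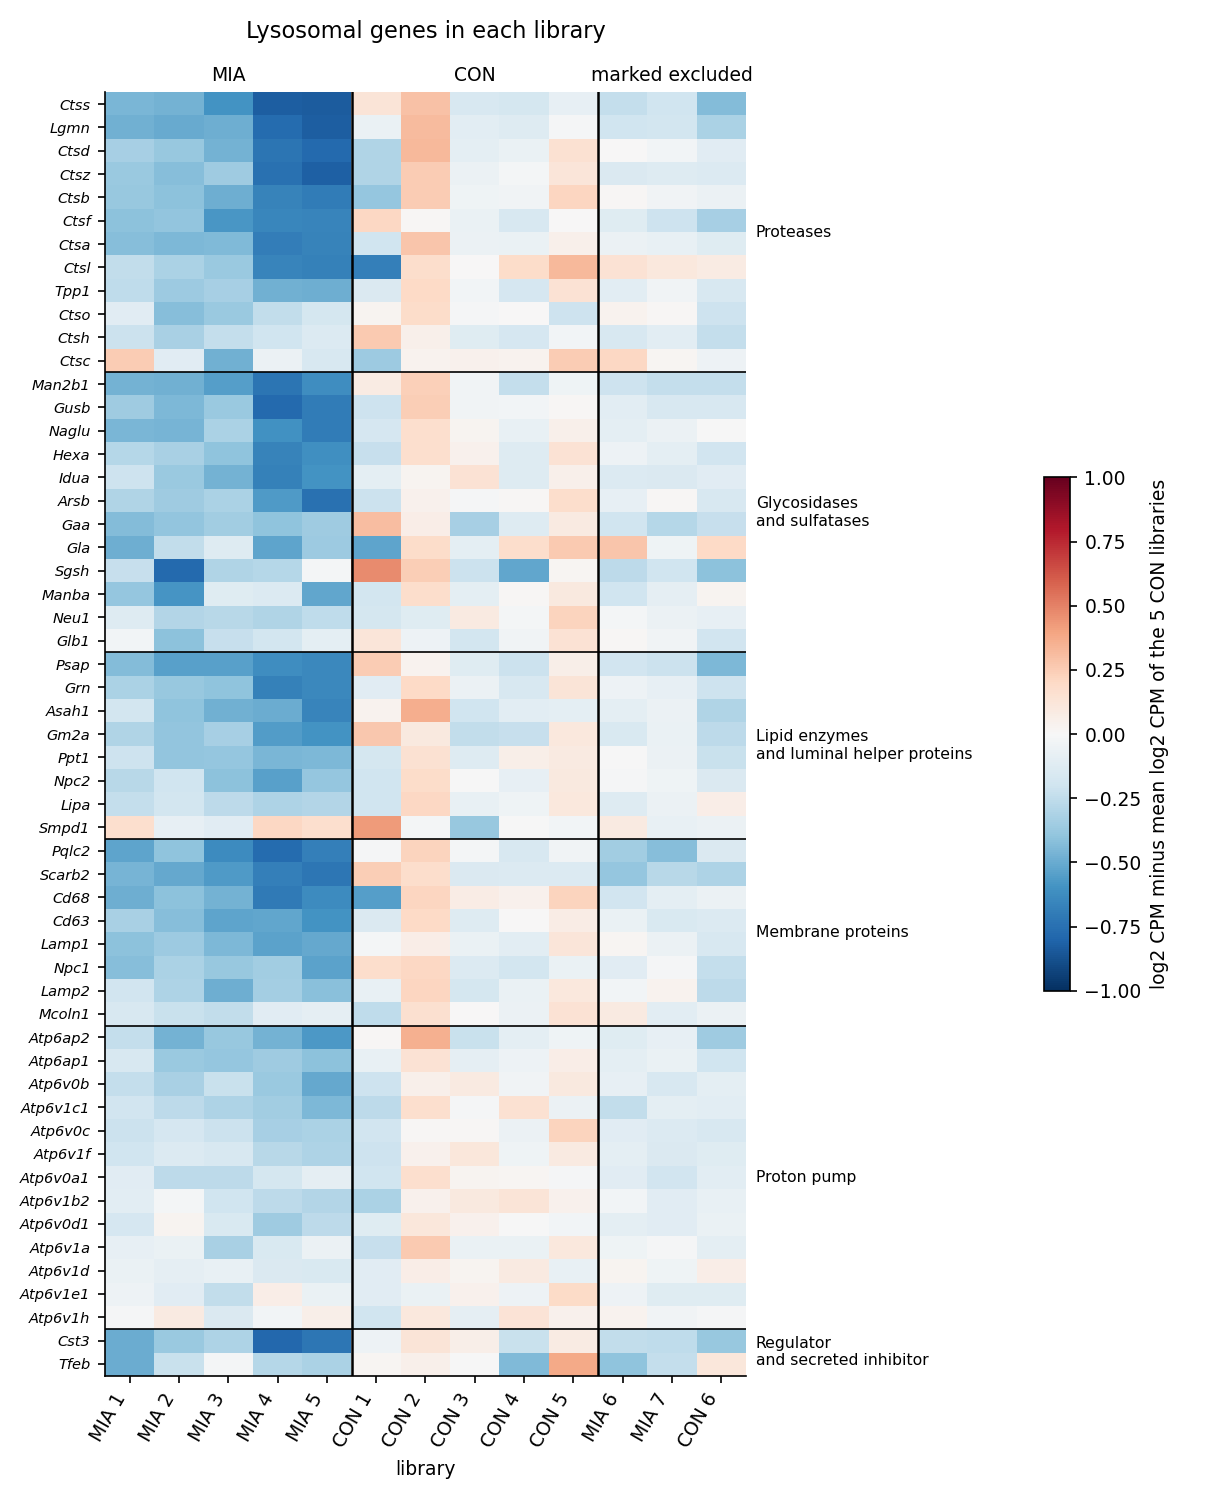
Level of each member in all 13 libraries as log2 CPM minus the gene's mean over the 5 CON libraries, with MIA columns left of CON columns and the excluded libraries marked. MIA 4 and MIA 5 hold the 2 lowest MIA values for 34 members, and CON 2 holds the highest CON value for 30.

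Among the glycosidases and sulfatases 7 of 12 fell, all without overlap, with a median of -0.43. Man2b1, the lysosomal alpha-mannosidase, had 1011, 1006, 959, 848 and 912 CPM in MIA 1 to MIA 5, against 1485, 1653, 1369.9, 1194 and 1362 CPM in CON 1 to CON 5. No MIA library reached the lowest control, and the change was -0.58 ± 0.09 (SE, edgeR adjusted p = 0.00147). Naglu, which removes N-acetylglucosamine from heparan sulfate, had 129.6, 129, 143, 117 and 109.9 CPM in MIA 1 to MIA 5, against 159, 200.1, 181, 169 and 184 CPM in CON 1 to CON 5. Its groups were likewise separate, at -0.51 ± 0.09 (SE, edgeR adjusted p = 0.00238). Gusb, the beta-glucuronidase, had 600.3, 565, 596, 450.1 and 473 CPM in MIA 1 to MIA 5, against 668, 914, 753, 757 and 776 CPM in CON 1 to CON 5. MIA 4 and MIA 5 were lowest, CON 2 was highest, and the change was -0.53 ± 0.10 (SE, edgeR adjusted p = 0.0059). Hexa, the alpha subunit of beta-hexosaminidase, had 402 CPM per kb in MIA and 553 CPM per kb in CON and averaged 803 ± 94.0 CPM in MIA and 1103 ± 132 CPM in CON (SD, n = 5 each), a change of -0.46 ± 0.10, adjusted p = 0.0117. Idua and Arsb, which act on dermatan sulfate, changed by -0.46 ± 0.10, adjusted p = 0.00839, and by -0.45 ± 0.10, adjusted p = 0.0109. Gaa, the enzyme that digests glycogen in lysosomes, changed by -0.40 ± 0.10, adjusted p = 0.0217. Gaa lost the call without CON 2, CON 5, MIA 4 or MIA 5, without CON 1 and CON 2 together, and with scaling to total counts alone. The members that missed the test were Glb1, Gla, Manba, Neu1 and Sgsh, with estimates from -0.37 to -0.19. Sgsh, which acts on heparan sulfate like Naglu, was scarce at 12.5 ± 2.25 CPM in MIA and 15.9 ± 4.18 CPM in CON, and its estimate was -0.34 ± 0.19, adjusted p = 0.325.

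Enzymes of lipid breakdown and the luminal helper proteins fell for 6 of 8 members, with a median of -0.41, and for 3 of them without MIA 4 or without MIA 5. Psap, the precursor of the saposins that present sphingolipids to their hydrolases, had 1213, 1121, 1124, 1065 and 1047 CPM in MIA 1 to MIA 5, against 1950.0, 1675, 1507, 1408 and 1701 CPM in CON 1 to CON 5. The highest MIA library was below the lowest control, with a change of -0.57 ± 0.09 (SE, edgeR adjusted p = 0.00155). Grn encodes progranulin, a secreted protein that is also delivered to lysosomes and cut into granulins. It had 2189, 2095, 2068, 1707 and 1749.7 CPM in MIA 1 to MIA 5, against 2524, 3127, 2624, 2447 and 2984 CPM in CON 1 to CON 5. No values overlapped, and the change was -0.48 ± 0.10 (SE, edgeR adjusted p = 0.00651). Ppt1, which removes palmitate from proteins, had 256, 226, 227, 216 and 217 CPM in MIA 1 to MIA 5, against 262, 329, 270.4, 307 and 315 CPM in CON 1 to CON 5. MIA 1 alone came near the lowest control, and the change was -0.38 ± 0.08 (SE, edgeR adjusted p = 0.00919). Asah1, the acid ceramidase, changed by -0.45 ± 0.11, adjusted p = 0.0231, with some overlap, and lost the call without MIA 3, MIA 4 or MIA 5. The ganglioside activator Gm2a changed by -0.45 ± 0.11, adjusted p = 0.0171, and the cholesterol carrier Npc2 by -0.37 ± 0.09, adjusted p = 0.0186. Both lost the call without MIA 4 or MIA 5.

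Smpd1, the acid sphingomyelinase, was the one member with a positive estimate. It had 66.7, 56.2, 54.8, 68.4 and 66.8 CPM in MIA 1 to MIA 5, against 79.8, 58.7, 45.7, 59.1 and 58.4 CPM in CON 1 to CON 5. The groups overlapped, CON 1 being the highest of all 10 and CON 3 the lowest, and the estimate was 0.05 ± 0.13 (SE, edgeR adjusted p = 0.864). Without CON 3 the estimate was -0.03. Lipa, the acid lipase, averaged 259.8 ± 8.81 CPM in MIA and 312 ± 34.6 CPM in CON (SD, n = 5 each) and missed the test at -0.26 ± 0.08, adjusted p = 0.0523.

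Membrane proteins fell for 7 of 8 members, 6 of them without overlap, with a median of -0.47. Pqlc2, the exporter of cationic amino acids, had 41.6, 45.3, 38.8, 35.1 and 37.2 CPM in MIA 1 to MIA 5, against 59.4, 69.8, 59.1, 53.6 and 58.5 CPM in CON 1 to CON 5. Its groups were separate, the change was -0.60 ± 0.09 (SE, edgeR adjusted p = 0.00144), and it passed the test in all 21 alternative fits. Scarb2, the receptor that carries glucocerebrosidase to lysosomes, had 158, 152, 146, 136 and 131 CPM in MIA 1 to MIA 5, against 257, 245, 197, 197 and 198 CPM in CON 1 to CON 5. CON 1 and CON 2 were highest, all MIA values lay below the controls, and the change was -0.60 ± 0.10 (SE, edgeR adjusted p = 0.00157). Lamp1, a major glycoprotein of the limiting membrane, had 1588, 1647, 1553, 1462 and 1481 CPM in MIA 1 to MIA 5, against 2091, 2208, 2023, 1962 and 2305 CPM in CON 1 to CON 5. Both groups were narrow and separate, with a change of -0.45 ± 0.07 (SE, edgeR adjusted p = 0.00133). Cd63, a tetraspanin of late endosomes and lysosomes, changed by -0.48 ± 0.08, adjusted p = 0.00257. Lamp2, which also serves in chaperone-mediated autophagy, changed by -0.35 ± 0.09, adjusted p = 0.0209, and lost the call without CON 2, CON 5, MIA 3, MIA 4 or MIA 5. Npc1, the membrane protein that passes cholesterol out of lysosomes, changed by -0.41 ± 0.09, adjusted p = 0.00985. Cd68, the macrophage sialomucin, changed by -0.56 ± 0.13, adjusted p = 0.0136, with CON 1 inside the MIA range at 465 CPM, and lost the call without MIA 5. Mcoln1, a cation channel that releases lysosomal calcium, averaged 60.3 ± 2.72 CPM in MIA and 68.0 ± 7.78 CPM in CON (SD, n = 5 each), with an estimate of -0.17 ± 0.09, adjusted p = 0.262.

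**Figure D3:**
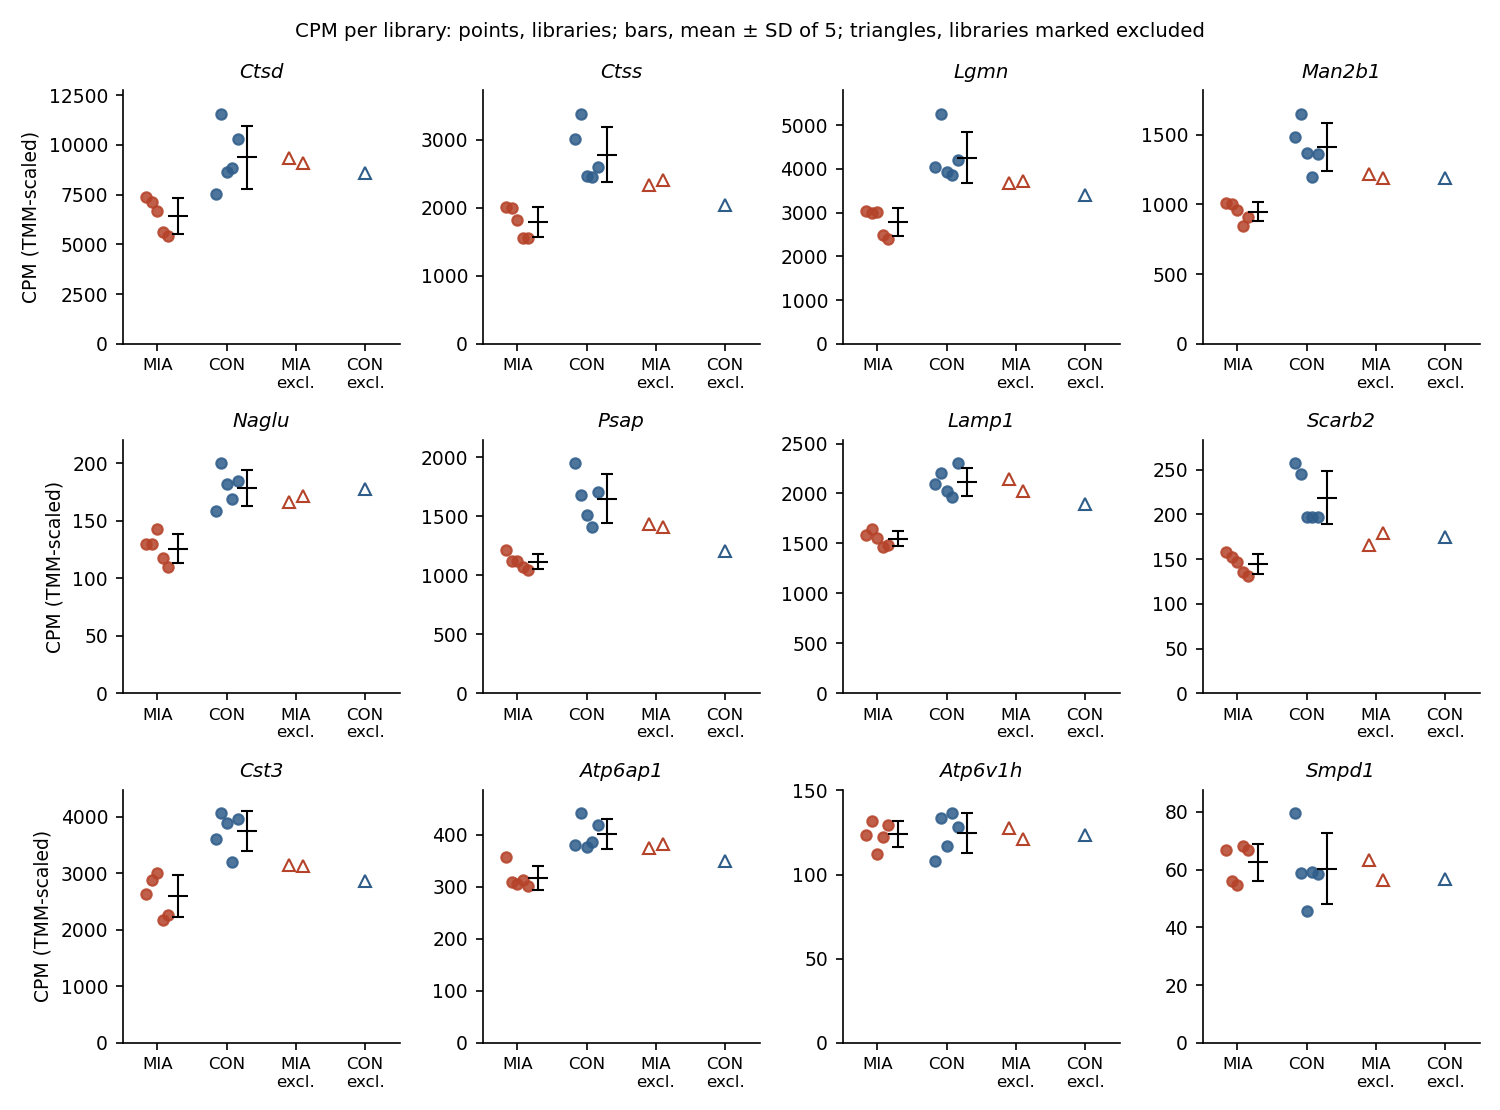
CPM (vertical axis) of 12 members in each library, MIA left of CON, with bars for the mean ± SD of 5 libraries and triangles for the libraries marked excluded. Of the 10 retained libraries, all MIA points lie below all CON points in every panel except Smpd1 and Atp6v1h, where the groups overlap, and the triangles of MIA 6 and MIA 7 lie above the retained MIA points in the other panels.

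Fewer genes of the proton pump were called. Of its 13 members 4 fell and 9 did not pass the test, with a median of -0.19 and estimates from -0.44 to -0.01. Both accessory proteins were among the 4. Atp6ap1, an accessory protein of the pump's membrane sector, had 358, 310.0, 306, 312 and 301 CPM in MIA 1 to MIA 5, against 381, 443, 376, 386 and 418 CPM in CON 1 to CON 5. MIA 1 stood above the other MIA libraries yet below every control, with a change of -0.34 ± 0.07 (SE, edgeR adjusted p = 0.011). Atp6ap2, the accessory protein also known as the prorenin receptor, had 321, 274, 292, 273 and 255 CPM in MIA 1 to MIA 5, against 382, 485, 325, 355 and 368 CPM in CON 1 to CON 5. The groups were separate by a narrow margin, and the change was -0.44 ± 0.10 (SE, edgeR adjusted p = 0.017), a call lost without MIA 5. Atp6v0b, a subunit of the membrane sector, had 183, 173, 186, 167 and 152 CPM in MIA 1 to MIA 5, against 188, 224, 231, 211 and 232 CPM in CON 1 to CON 5. MIA 3 and CON 1 almost met, and the change was -0.33 ± 0.08 (SE, edgeR adjusted p = 0.0183), a call lost without MIA 4 or MIA 5. Of the 4 membrane-sector subunits Atp6v0b was the one called. Atp6v0c, which forms most of the proton-carrying ring, had 533, 552, 533, 492 and 496 CPM in MIA 1 to MIA 5, against 544, 626, 624, 596 and 721 CPM in CON 1 to CON 5. Reads assigned to its pseudogene Atp6v0c-ps2 came to 0.3% of its own. MIA 2 lay above CON 1, and the estimate was -0.26 ± 0.08 (SE, edgeR adjusted p = 0.0615).

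In the cytosolic sector, which hydrolyses ATP, 1 of 7 subunits fell and the median was -0.14. That subunit was Atp6v1c1, with 109, 104, 100.3, 97.9 and 91.1 CPM in MIA 1 to MIA 5, against 104, 139.9, 124, 139 and 119.8 CPM in CON 1 to CON 5. MIA 1 overlapped CON 1, the change was -0.32 ± 0.09 (SE, edgeR adjusted p = 0.0346), and it lost the call in 8 of the 10 fits that left out one library, keeping it without CON 1 and without MIA 1. It also lost the call with scaling to total counts alone. Atp6v1h had 123, 132, 112, 122 and 129 CPM in MIA 1 to MIA 5, against 108, 134, 117, 137 and 128 CPM in CON 1 to CON 5. The groups overlapped throughout, with an estimate of -0.01 ± 0.08 (SE, edgeR adjusted p = 0.961). Atp6v1a, the catalytic subunit, had an estimate of -0.14 ± 0.09, adjusted p = 0.414. Without CON 1 the number of pump members called was 8, without MIA 4 it was 2, and without MIA 5 it was 1.

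Of the control genes, Tfeb, which encodes the transcription factor named above, had 6.45, 7.81, 8.96, 7.46 and 7.3 CPM in MIA 1 to MIA 5, against 9.2, 9.42, 9.08, 6.7 and 11.8 CPM in CON 1 to CON 5. These levels were low, CON 4 lay inside the MIA range, and the estimate was -0.28 ± 0.17 (SE, edgeR adjusted p = 0.37). Cst3 had 2644, 2884, 3015, 2173 and 2265 CPM in MIA 1 to MIA 5, against 3612, 4079, 3889.6, 3203 and 3957 CPM in CON 1 to CON 5. The groups were separate, and the change was -0.53 ± 0.10 (SE, edgeR adjusted p = 0.00582).

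The roles were then set side by side as sums. Proteases summed to 22434 ± 2581 CPM in MIA and 32481 ± 4578 CPM in CON (SD, n = 5 each), a ratio of 0.691. The ratio was 0.712 for glycosidases and sulfatases, 0.725 for lipid enzymes and helpers, and 0.728 for membrane proteins. For the pump it was 0.845, from 2701 ± 115 CPM in MIA and 3197 ± 236 CPM in CON. The difference between roles was not tested.

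**Figure D4:**
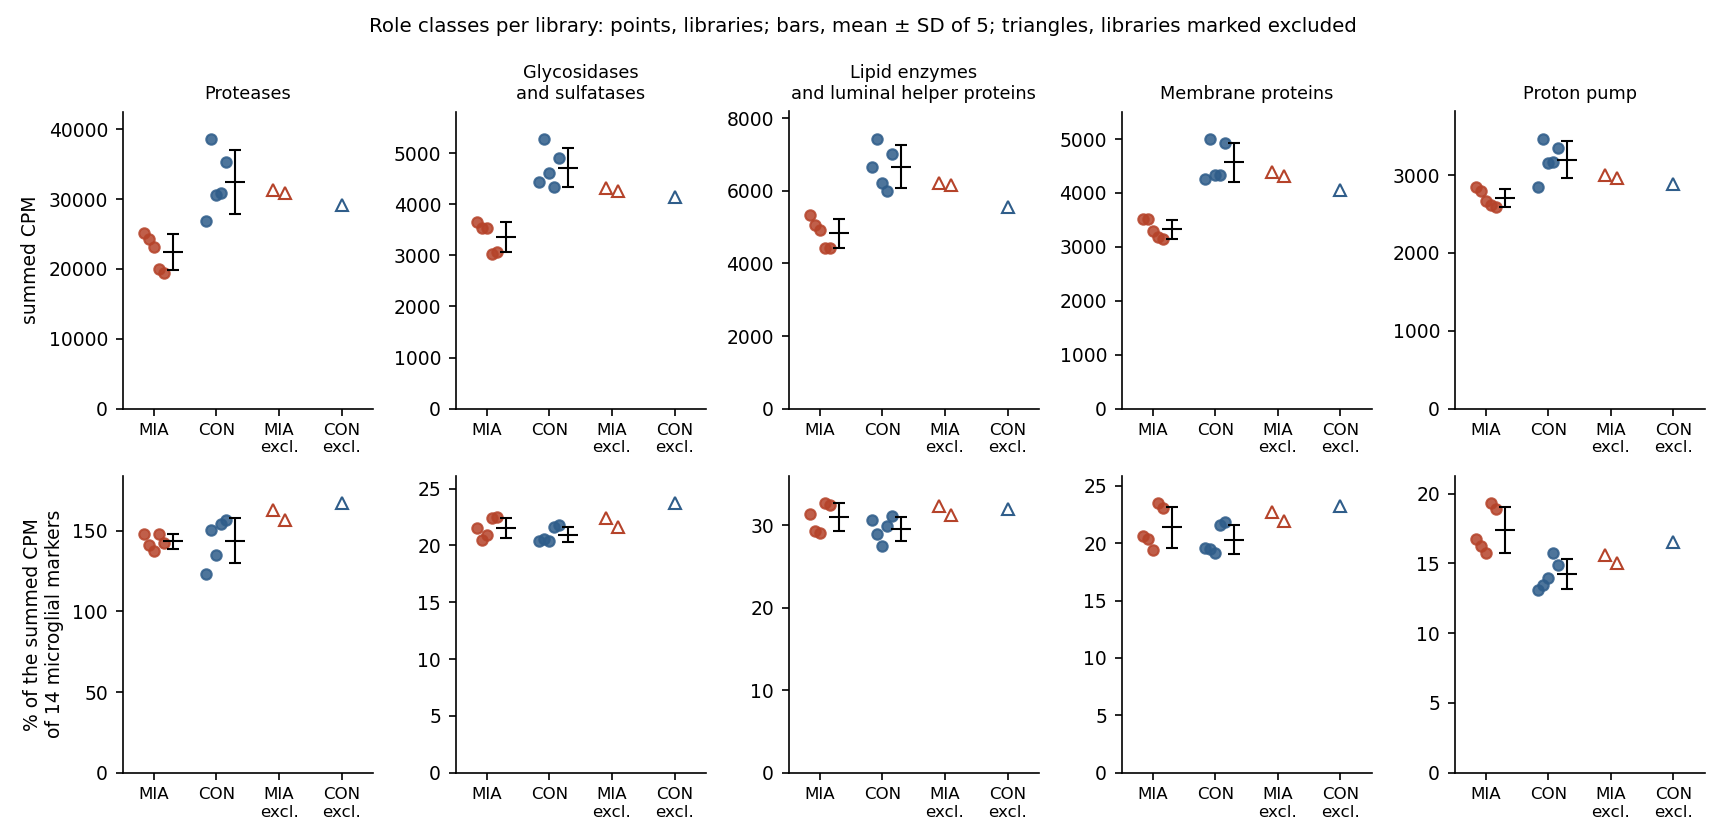
Summed CPM of the members of each role in each library, MIA left of CON (upper row), and the same as a percentage of the summed CPM of 14 microglial markers (lower row), with bars for the mean ± SD of 5 libraries and triangles for the libraries marked excluded. The pump sums nearly meet, at 2847.2 CPM in the highest MIA library and 2847.7 CPM in the lowest CON library, while protease sums are 19475 to 25214 CPM in MIA and 26908 to 38705 CPM in CON.

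Because microglial markers fell too, the sums were also expressed as a percentage of the summed CPM of 14 of the microglial markers. All members together were 251 ± 8.93% of that sum in MIA and 246 ± 16.9% in CON (SD, n = 5 each). Proteases were 143 ± 4.71% in MIA and 144 ± 14.2% in CON. Glycosidases and sulfatases were 21.6 ± 0.880% in MIA and 20.96 ± 0.692% in CON. The values of the 2 groups overlapped for each of these. The pump stood apart, at 17.4 ± 1.63% in MIA and 14.2 ± 1.08% in CON, with ranges of 15.76 to 19.34% in MIA and 13.06 to 15.73% in CON that did not overlap. The pump is used by every cell type, and endothelial markers were 1.40 higher in median on the log2 scale in MIA. Their part in the pump's share was not tested. In the excluded libraries the pump's share was 15.6% in MIA 6 and 15.04% in MIA 7, against 16.5% in CON 6, so the order of the groups was not kept there.

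MIA 6 and MIA 7 lay mostly with the controls for these genes. MIA 6 lay within the range of the 5 controls for 46 of 55 members and MIA 7 for 45. Of all 55 members, MIA 6 lay above all 5 retained MIA libraries for 43, MIA 7 for 42 and CON 6 for 36. The same counts over all genes were not taken. CON 6 lay within the control range for 35 members and below it for 20. The summed level of all members was 52442 CPM in MIA 6, 51684 CPM in MIA 7 and 34996 to 43220 CPM in MIA 1 to MIA 5, against 48728 CPM in CON 6 and 48754 to 64013 CPM in CON 1 to CON 5. Microglial markers summed to 24534 CPM in MIA 6 and 25214 CPM in MIA 7, against 22418 CPM in CON 6. Endothelial markers summed to 2269 CPM in MIA 6, 2493 CPM in MIA 7 and 2838 CPM in CON 6.

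Other genes of the lysosome, outside the 55, moved in both directions but mostly downward. Of 77 listed 74 were tested, 27 fell, or 36.5%, and 3 rose, and their median was -0.30. Over all genes tested 4.58% were lower and 5.75% were higher. The number that fell was 16 without MIA 4, 14 without MIA 5, 10 with all 13 libraries, and 0 with all 13 except CON 1 and CON 2, where 0 rose as well. The share of all genes lower in these fits was 2.43%, 2.32%, 1.5% and 0.231%, in the same order. Further glycosidases and nucleases fell for 11 of 17. The ribonuclease genes Rnaset2a and Rnaset2b both fell, but they are near-identical copies, so the split of reads between them is uncertain. Of 4 further lipid enzymes 3 fell, led by the lysosomal phospholipase Pla2g15 at -0.71 ± 0.11 (SE, edgeR adjusted p = 0.00104). Further membrane proteins fell for 5 of 21, among them Laptm5 at -0.56 ± 0.10. The pump genes Tcirg1 and Atp6v0a2 fell, 2 of 7 tested, with changes of -0.46 ± 0.12 and -0.25 ± 0.07.

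Among 10 genes that sort hydrolases to lysosomes, Gnptg, a subunit of the enzyme that builds the mannose 6-phosphate tag, fell by 0.60 on the log2 scale (edgeR adjusted p = 0.00175). Nagpa, which uncovers the tag, fell as well. Igf2r, a receptor that carries tagged hydrolases, rose, with 10.1 ± 0.944 CPM in MIA and 6.06 ± 1.12 CPM in CON (SD, n = 5 each), a change of 0.74 ± 0.17 (adjusted p = 0.0140). The other genes that rose were Ctsw, a cathepsin of cytotoxic lymphocytes, at 14.8 ± 4.29 CPM in MIA and 4.67 ± 1.66 CPM in CON (adjusted p = 0.00216), and the membrane protein Laptm4b, at 133 ± 15.9 CPM in MIA and 87.2 ± 14.2 CPM in CON (adjusted p = 0.00436). Of 7 genes that control lysosome production or sensing, Flcn, a regulator of TFEB family proteins, fell by 0.36 on the log2 scale (adjusted p = 0.00620), and the TFEB relatives Tfe3 and Mitf had estimates of -0.13 and -0.34 and did not pass the test.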

How the data were processed

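RNA-seq libraries came from CD11b-selected neonatal microglia, made with a Smart-Seq2 type protocol that does not mark strand, per the labels' protocols. RSEM, STAR and DESeq2 are named in the submitters' processing notes; no source used here gives the genome build or annotation. The authors deposited expected counts per gene, estimates that need not be whole and carry no normalization across libraries. Of the nonzero values 20.607% were not whole, and all were rounded. Gene IDs gained symbols for 55141 of 55487 rows.

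MIA 1 to MIA 5 were compared with CON 1 to CON 5 with the quasi-likelihood test of edgeR 4.0.16, on genes kept by filterByExpr, with TMM scaling, a robust fit, group as the only term and Benjamini-Hochberg adjustment over 15511 genes. Fold changes are MIA over CON; the SE is the log2 fold change over the root of F. Excluded libraries were set on the same CPM scale and entered only alternatives. Alternatives covered scaling, filters, DESeq2, limma-voom, library choice and a replicate block. Members given in full were, per role, the 3 with the smallest p, the one with the highest mean CPM and any of opposite sign. Ctsl, Atp6v1c1 and Atp6v1h were added after their values were seen. Gene lists and members were chosen with earlier results of these data known. Some genes of the lists are not reported here. The method was tested on simulated data.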

Additional observations from a re-analysis of the deposited data

Results flagged for a closer look

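In 6 of the 124 groups of 5 libraries checked, one library stood far from the other 4, its gap to the nearest exceeding 0.71 of the whole range. Chance gives about 1 such group in 20. MIA 1 was the high library for 3 members: Neu1 at 64.8 CPM against 57.6 to 59.6 CPM in the other MIA libraries, Ppt1 at 256 CPM against 216 to 227 CPM, and Atp6ap1 at 358 CPM against 301 to 312 CPM. CON 1 was the low library for Cd68, at 465 CPM against 701 to 796 CPM in the other CON libraries, and for Atp6v1b2, at 269 CPM against 346 to 367 CPM. CON 2 was high for Lgmn, at 5266 CPM against 3859 to 4199 CPM.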

How the results depend on the processing

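With all 13 libraries, 7 members fell: 1 protease, 3 glycosidases and sulfatases, 0 lipid enzymes, 3 membrane proteins and 0 pump subunits. Of other lysosomal genes 10 fell, and over all genes 659 were called, 235 lower and 424 higher. With all 13 libraries except CON 1 and CON 2, 1 member fell, a membrane protein, with 0 proteases, 0 glycosidases, 0 lipid enzymes and 0 pump subunits, and of other lysosomal genes 0 fell and 0 rose, among 90 genes called, 37 lower and 53 higher. At an unadjusted p under 0.05, 41 and 37 members were past the threshold in those 2 fits, counted in either direction. The share of all genes past it was not taken, so these counts cannot be set against the whole table. Without CON 1 and CON 2, 7 pump subunits fell. Leaving out 1 library in turn gave 22 to 42 members lower, 6 to 9 proteases, 6 to 10 glycosidases and sulfatases, 3 to 7 lipid enzymes, 5 to 7 membrane proteins and 1 to 8 pump subunits. Over all genes it gave 1037 to 2263 called, 365 to 1025 lower and 672 to 1238 higher, and of other lysosomal genes 14 to 33 lower and 3 to 4 higher. Of the 33 called members 22 kept the call in all 10 of these fits, and the same count over all genes was not taken. The cause of these shifts was not tested. Other scalings, filters, DESeq2 and limma-voom gave 31 to 38 members lower, with 2.36 to 7.33% of all genes in the fit lower. Scaling to total counts alone gave 1036 genes higher and 496 lower, or 67.6% of calls higher against 55.7%, and upper quartile scaling gave 856 higher and 848 lower, or 50.2%. The estimate of Atp6v1h turned positive with total counts (0.052), a strict filter (0.031), and without CON 2 (0.015), CON 4 (0.025) or MIA 3 (0.023), and that of Smpd1 turned negative without CON 3 (-0.033). Their estimates without 1 library ran from -0.059 to 0.025 for Atp6v1h and from -0.033 to 0.17 for Smpd1, and none of these passed the test. A fit with the replicate number as a block called 32 members, losing Atp6v1c1, and 1524 genes over the whole table. Group was the only term of the main fit, and the numbers were not taken as pairing the libraries. Same-numbered deviations correlated at 0.0551 to 0.360, against -0.349 to 0.333 for the other pairs of a MIA and a CON library. Of 10 libraries 3 correlated best with their own number. These values do not settle whether the libraries were paired.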
